A study of Mus musculus with 15 samples.

Results

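The 8 genes described here make, hold or break down hyaluronan in the mouse palate: the synthases *Has1*, *Has2* and *Has3*, the breakdown genes *Hyal1*, *Hyal2* and *Cemip*, the receptor gene *Cd44* and the proteoglycan gene *Vcan*. They were chosen by name as genes of 1 pathway, with earlier results of these data known, and are 8 of the 54232 genes in the count table. The table covers secondary palates of wild-type mice that carried no other stated allele and received no stated treatment. The groups were embryonic days E13.5, E14.5, E15.5 and E16.5 and newborns (P0), with 3 libraries each, and every library pooled the palates of 3 embryos. The whole palate was taken, so a level averages over all its cells, and fewer cells of a type and less RNA per cell cannot be told apart. The labels do not say whether pools came from separate litters, so p-values measure the spread between these pools. The comparisons ask how expression of these genes differed between neighbouring stages and over the whole span.

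Hyaluronan is a long unsulfated sugar chain that synthases in the plasma membrane spin out from UDP-glucuronic acid and UDP-N-acetylglucosamine. It binds much water, and proteoglycans such as versican hang on it to build a swollen matrix, while receptors such as CD44 tie that matrix to the cell. Hyaluronidases cut the chain into fragments, and lysosomal glycosidases finish its breakdown. In the palate, a hyaluronan-rich matrix in the shelf mesenchyme has long been linked with the elevation of the shelves above the tongue.

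Upstream sequences were available for 6 of the 8 genes in the RefSeq promoter table (GRCm38.p6), and 4 are printed because these genes changed between E13.5 and P0, *Has1* and *Cd44* upward, *Vcan* and *Hyal2* downward. Each is the 250 bases before the RefSeq start, 5′ to 3′ on the gene's strand, with motif matches in capitals. The *Has1* window lies at chr17:17855189-17855438 on the minus strand, and the *Cd44* window at chr2:102901666-102901915 on the minus strand. The *Vcan* window lies at chr13:89742513-89742762 on the minus strand, and the *Hyal2* window at chr9:107568913-107569162 on the plus strand, inside the gene span of the count table. The last bases of the *Has1* window also lie inside its gene span, which ends at 17855205.
Has1: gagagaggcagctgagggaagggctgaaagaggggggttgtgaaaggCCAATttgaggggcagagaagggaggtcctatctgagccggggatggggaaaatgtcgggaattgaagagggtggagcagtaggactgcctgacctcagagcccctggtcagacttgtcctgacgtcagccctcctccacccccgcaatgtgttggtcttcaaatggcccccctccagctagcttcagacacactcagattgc
Cd44: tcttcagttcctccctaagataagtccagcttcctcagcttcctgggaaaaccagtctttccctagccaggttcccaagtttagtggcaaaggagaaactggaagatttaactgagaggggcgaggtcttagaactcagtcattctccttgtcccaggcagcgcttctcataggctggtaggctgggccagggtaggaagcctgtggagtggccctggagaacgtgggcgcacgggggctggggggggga
Vcan: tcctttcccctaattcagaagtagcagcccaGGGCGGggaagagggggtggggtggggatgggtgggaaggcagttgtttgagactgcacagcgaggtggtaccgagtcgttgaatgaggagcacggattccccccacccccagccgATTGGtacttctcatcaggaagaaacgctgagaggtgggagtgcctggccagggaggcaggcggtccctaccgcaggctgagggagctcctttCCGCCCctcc
Hyal2: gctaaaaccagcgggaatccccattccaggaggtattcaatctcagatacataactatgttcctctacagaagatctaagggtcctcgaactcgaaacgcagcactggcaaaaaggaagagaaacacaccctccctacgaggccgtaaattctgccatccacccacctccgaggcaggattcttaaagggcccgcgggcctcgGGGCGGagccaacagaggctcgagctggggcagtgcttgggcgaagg
The motifs searched on both strands were the GC box GGGCGG, the CCAAT box CCAAT, the TATA box TATAAA, the TCF/LEF motif CTTTGA and the AP-1 motif TGANTCA. The *Has1* window held 1 CCAAT box, *Vcan* held 2 GC boxes and 1 CCAAT box, *Hyal2* held 1 GC box, and the *Cd44* window held none of the 5. Among all 32851 RefSeq promoter windows of this length, 32.7% held a GC box, 33.8% a CCAAT box, 12.4% a TATA box, 13.8% the TCF/LEF motif and 6.75% the AP-1 motif. These are letter matches in a short window. The windows of *Cemip* and *Hyal1*, not printed, held 2 GC boxes each, which overlapped in *Hyal1*. *Cemip* also had 1 TATA box, *Hyal1* 1 CCAAT box, and *Cemip* had the highest GC content of the 6 windows, 75.2% against a median of 52.4% over all windows.

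Libraries held 21.5 M to 69.0 M counts, so a level of 3 counts, the detection floor, stood between 0.0435 and 0.140 CPM (counts scaled by the library total), and floors and intervals cover counting error only. All 6 palate mesenchyme markers (*Osr2*, *Pax9*, *Msx1*, *Twist1*, *Prrx1* and *Pdgfra*) were above 3 counts in every library. E14.5 replicates 1 and 3 stood apart in the summed level of brain and choroid plexus markers (*Ttr*, *Kcne2*, *Neurod1*, *Sox2* and *Otx2*). The sum was 1430 and 779 CPM there, while the other 13 libraries lay between 20.9 and 411 CPM. Replicate 3 stood apart by *Ttr* (673 CPM) and *Kcne2* (22.1), which were at 8.64 and 0.257 CPM in replicate 2. Its *Neurod1* (15.7 CPM) and *Sox2* (45.2) were below those of replicate 2 (20.1 and 56.4). Its *Otx2* (22.95 CPM) was above replicate 2 (8.47) but below P0 replicate 3 (35.6). E14.5 replicate 2 was thus low in *Ttr* and *Kcne2* but not in every brain marker. The sum of 4 Y-linked genes was 0.134 to 0.323 CPM in the E16.5 libraries, while at least 1 library of every other stage exceeded 138 CPM. Log2 fold changes that involve E14.5 are also given below with E14.5 represented by replicate 2 alone, where the spread comes from the libraries of the other stages and the lone library is assumed to vary like them.

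Over the 5 stages, 5 of the 8 genes differed in edgeR's quasi-likelihood F test at an adjusted p under 0.05, against 59.1% of all 22151 genes tested, so the members' share was close to the background. The 5 were *Has1*, *Has2*, *Hyal2*, *Cd44* and *Vcan*. From E13.5 to P0 the same 5 passed, where 56.6% of all genes did: *Has1* and *Cd44* rose (29.8% of all genes rose), and *Has2*, *Hyal2* and *Vcan* fell (26.8% fell). Libraries of E13.5 and P0 did not overlap for 6 of the 8, the 5 and *Hyal1*, as for 59.1% of all genes. The median log2 fold change of the 8 genes was -0.08, beside 0.03 over all genes. All 8 passed the filter on low counts. Only *Has1* and *Cd44* passed between neighbouring stages, both from E14.5 to E15.5.

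**Figure D1:**
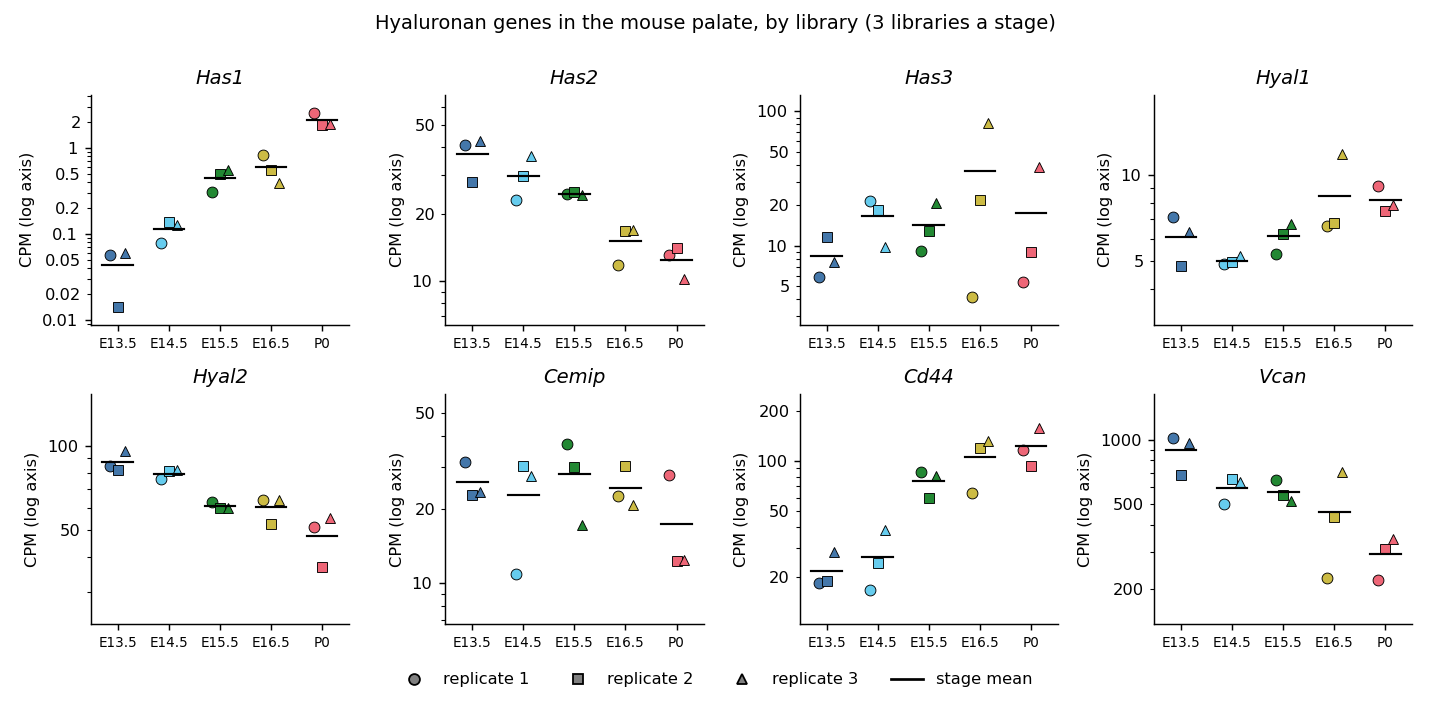
Level of each of the 8 genes in every library, in CPM on a log axis, by stage; shapes mark the replicate and bars the stage mean of 3 libraries. *Has1* and *Cd44* were higher and *Has2*, *Hyal2* and *Vcan* lower at P0 than at E13.5 in every library, while the *Has3* libraries of E16.5 spread from 4.16 to 82.6 CPM.

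*Has2* encodes the main hyaluronan synthase of embryonic mesenchyme. It lies on chromosome 15 (GRCm38, 56665627 to 56694539, minus strand, ENSMUSG00000022367.7). Its level was 40.7, 27.9 and 42.5 CPM in E13.5 replicates 1 to 3, 23.1, 29.7 and 36.2 at E14.5, and 24.6, 25.2 and 24.2 at E15.5. It was 11.8, 16.8 and 17.05 CPM at E16.5 and 13.1, 14.1 and 10.3 at P0. Every library of E16.5 and P0 was below every earlier library, and stages up to E15.5 overlapped. *Has2* fell by 1.56 on the log2 scale (SE 0.22) from E13.5 (37.0 ± 8.01 CPM, SD, n = 3) to P0 (12.5 ± 2.01), a 2.95-fold lower level with an adjusted p of 9.05e-05 in edgeR's quasi-likelihood test. From E15.5 to E16.5 its log2 fold change was -0.69 (SE 0.21) with no overlap between libraries, an edgeR adjusted p of 0.101 and a DESeq2 adjusted p of 0.0358. The antisense gene *Has2os* overlaps its exons, and counting used strand. *Has2os* itself stood at 0.882 to 2.56 CPM (unadjusted totals).

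The summed level of the 6 mesenchyme markers was, like *Has2*, lower at P0 than at E13.5. It was 712 to 1250 CPM at E13.5, 439 to 839 a day later and 610 to 763 at E15.5. It was 337 to 485 CPM in the E16.5 libraries and 370 to 481 in those of P0. The median went from 701 to 722 CPM between E14.5 and E15.5 and from 378 to 409 between E16.5 and P0, with overlapping ranges. *Has2* libraries also overlapped at both steps, and neither passed (adjusted p 0.371 and 0.640 in edgeR's test). Of the 6 genes, 4 were lower at P0 than at E13.5 in edgeR's test, beside 26.8% of all genes. Their median log2 fold change was -1.11. The part of mesenchyme in the *Has2* change was not tested.

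*Has3* encodes the synthase known from epithelia such as epidermis, and lies on chromosome 8 (106870242 to 106884566, plus strand, ENSMUSG00000031910.14). Its exons overlap those of *Chtf8*, a protein-coding gene on the opposite strand. *Has3* levels follow by stage. It was at 5.90, 11.7 and 7.57 CPM in the E13.5 libraries, 21.8, 18.5 and 9.84 at E14.5, and 9.22, 12.9 and 20.7 at E15.5. At E16.5 it was at 4.16, 22.0 and 82.6 CPM, and at P0 at 5.41, 9.05 and 38.5. Replicate 3 was the highest at E15.5, E16.5 and P0, and all neighbouring stages overlapped. The P0 against E13.5 log2 fold change of 1.06 (SE 0.87) had an edgeR adjusted p of 0.312 and became -0.18 without P0 replicate 3. Without E16.5 replicate 3, the E16.5 against E15.5 value of 1.34 (SE 0.87, edgeR adjusted p 0.389) became -0.13.

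The summed level of 6 epithelial markers varied between libraries in the same order at the later stages, while its members did not all do so. The sum of *Epcam*, *Krt5*, *Krt14*, *Krt8*, *Cdh1* and *Trp63* was 397, 1029 and 1585 CPM in E15.5 replicates 1 to 3, 754, 1092 and 1906 at E16.5, and 859, 1456 and 2596 at P0. Within each of these 3 stages *Has3* and this sum ranked the libraries alike, as did *Krt5*, *Krt14* and *Trp63*, genes of basal and stratified epithelium. *Krt8*, a gene of simple epithelium, with *Epcam* and *Cdh1* did not follow that order at every stage. At E16.5 *Krt8* was at 262, 112 and 91.6 CPM in replicates 1 to 3, *Epcam* at 113, 58.8 and 70.4, and *Cdh1* at 137, 105 and 116. All 3 were highest in replicate 1, where *Has3* was lowest. At E13.5 the sums were 280, 233 and 536 CPM, and at E14.5 353, 402 and 474, where *Has3* did not follow that order. All 6 markers were above 3 counts in every library. The part of epithelium in the *Has3* values was not tested.

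**Figure D2:**
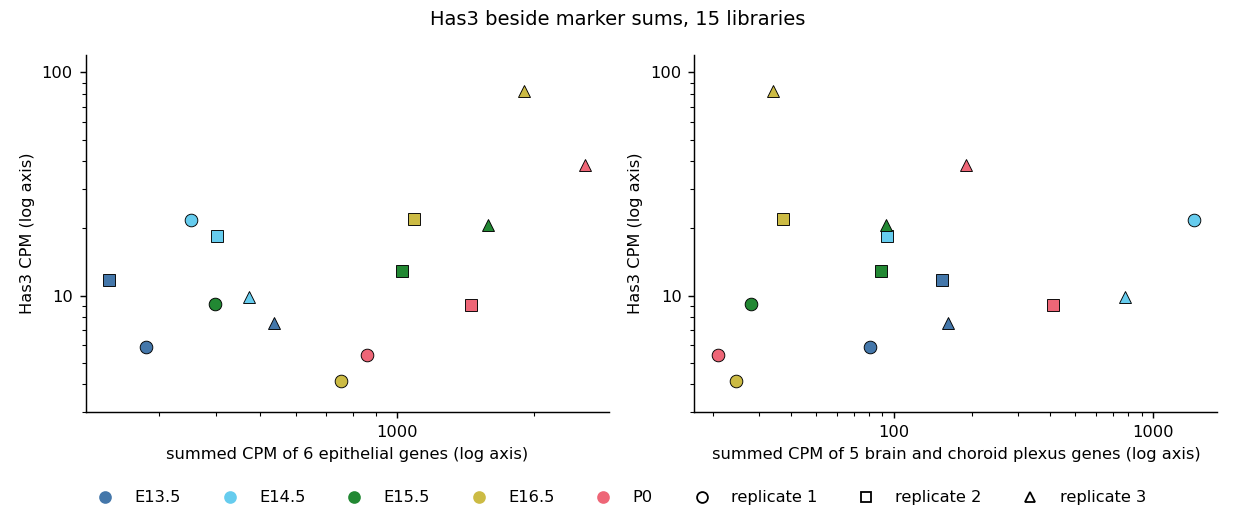
*Has3* level in CPM against the summed CPM of 6 epithelial genes (left) and of 5 brain and choroid plexus genes (right), both axes log, 1 point a library, with colour for stage and shape for replicate. Within E15.5, E16.5 and P0, *Has3* and the epithelial sum put the 3 libraries in the same order, and the 2 highest *Has3* libraries, at 82.6 and 38.5 CPM, have the 2 highest epithelial sums.

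*Has1*, on chromosome 17 (17843323 to 17855205, minus strand, ENSMUSG00000003665.7), encodes another of the membrane synthases. It had only 4, 1 and 4 counts in the E13.5 libraries, or 0.0573, 0.0141 and 0.0594 CPM. It was at 0.0779, 0.136 and 0.126 CPM at E14.5, from 5, 9 and 9 counts, and at 0.303, 0.492 and 0.549 CPM at E15.5. It reached 0.820, 0.553 and 0.391 CPM at E16.5 and 2.55, 1.83 and 1.87 at P0, where counts were 92, 60 and 43. Every E14.5 library was above every E13.5 library, at the closest with 5 counts against 4, near the floor. Every E15.5 library was above E14.5, and P0 above all others, while E15.5 and E16.5 overlapped. Pooled over the 3 libraries, 9 counts at E13.5 gave 0.0432 CPM (exact Poisson 95% interval 0.0198 to 0.0821), and 195 counts at P0 gave 2.12 CPM (1.84 to 2.44).

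From E13.5 to P0 *Has1* rose by a fitted log2 fold change of 4.73 (SE 0.41), with an adjusted p of 4.97e-06 in edgeR's quasi-likelihood test. A prior count of 2 shrinks that value at such low counts. The ratio of the pooled levels was 49.1, with an exact 95% counting interval of 25.3 to 109. It also rose from E14.5 to E15.5, by 1.69 (SE 0.36, edgeR adjusted p 0.00643), a pooled ratio of 3.99 (2.50 to 6.61). This call ended when all libraries were thinned to the smallest total (1.09, edgeR adjusted p 0.101). With E14.5 replicate 2 alone for E14.5 the value was 1.52. E14.5 then has no spread of its own, so whether the call held could not be judged. From E16.5 to P0 the value was 1.76 (SE 0.37, edgeR adjusted p 0.0690) with no overlap, and without E16.5 replicate 1 it passed at 2.07 (edgeR adjusted p 0.0417).

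Per kilobase of exon, *Has2* made up most of the synthase transcripts at the start. Its share of the summed CPM per kilobase of the 3 synthases was 91.1, 78.2 and 89.3% in E13.5 replicates 1 to 3, 61.4, 70.5 and 84.5% at E14.5 and 79.3, 73.5 and 62.9% at E15.5. It was 77.0, 52.7 and 23.6% at E16.5 and 68.7, 64.7 and 27.3% at P0. *Has3* was the larger in 2 libraries, with 75.9% in E16.5 replicate 3 and 68.0% in P0 replicate 3. The mean *Has1* share went from 0.0914% ± 0.0471 (SD, n = 3) at E13.5 to 1.202% ± 0.245 at E15.5 and 8.35% ± 3.95 at P0. The summed synthase level was 10.1 ± 1.47 CPM per kilobase at E13.5, 9.64 ± 0.675 a day later and 8.16 ± 0.893 at E15.5. It was 9.41 ± 6.92 CPM per kilobase at E16.5, where libraries spread most, and 6.18 ± 2.35 at P0. Not divided by length, the mean E16.5 shares changed order, with 54.4% for *Has3* and 43.4% for *Has2*, and *Has3* also led in E16.5 replicate 2 (55.8%). These shares are descriptions with no test.

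**Figure D3:**
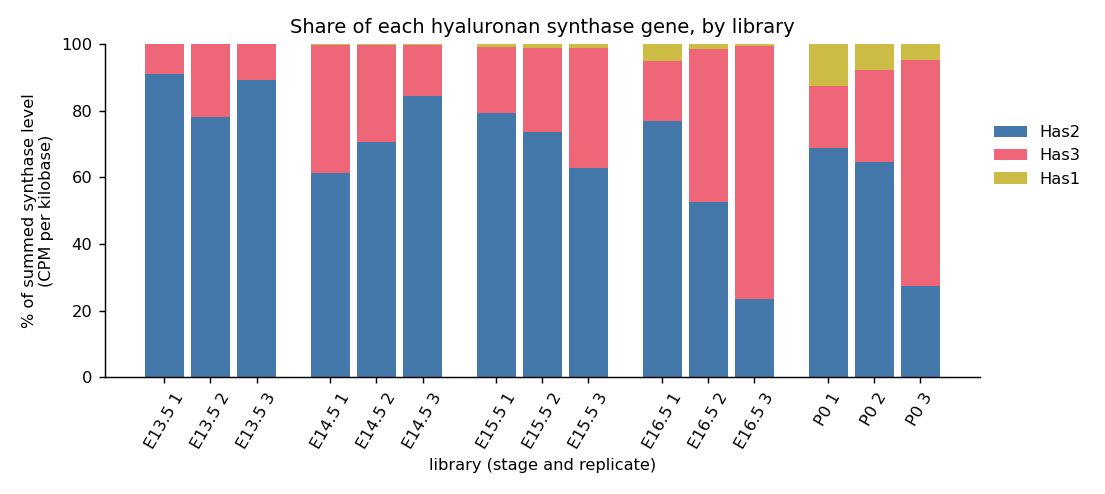
Share of *Has2*, *Has3* and *Has1* in the summed CPM per kilobase of the 3 synthase genes, in percent, 1 bar a library. On this scale *Has2* is the largest share in 13 of 15 libraries, *Has3* in E16.5 replicate 3 (75.9%) and P0 replicate 3 (68.0%), and *Has1* reaches 12.5% in P0 replicate 1.

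*Hyal2* encodes a hyaluronidase anchored at the cell surface that cuts long chains, and lies on chromosome 9 (107567945 to 107572779, plus strand, ENSMUSG00000010047.12). It was at 84.3, 81.5 and 95.4 CPM in the E13.5 libraries, 75.7, 81.0 and 81.8 at E14.5 and 63.0, 59.7 and 59.8 at E15.5. It was at 64.1, 52.7 and 64.1 CPM at E16.5 and 51.2, 37.0 and 55.0 at P0. All libraries from E15.5 on were below all E13.5 and E14.5 libraries. *Hyal2* fell by 0.87 on the log2 scale (SE 0.14) from E13.5 (87.1 ± 7.33 CPM, SD, n = 3) to P0 (47.8 ± 9.48), 1.82-fold lower with an edgeR adjusted p of 0.000241. The step from E14.5 to E15.5 was -0.39 (SE 0.14) with an edgeR adjusted p of 0.0550, and it passed under some other settings, at an adjusted p of 0.0421 in DESeq2 and 0.0240 in a fit of only those 6 libraries. The mesenchyme marker sum was also lower at P0 than at E13.5. From E14.5 to E15.5, where *Hyal2* did not pass in the main fit, none of the 6 markers passed in edgeR's test. Of these, 0 had an unadjusted p under 0.05, and their median log2 fold change was -0.0025. The part of mesenchyme in the *Hyal2* values was not tested.

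*Hyal1*, the neighbouring gene (chromosome 9, 107576927 to 107581710, plus strand, ENSMUSG00000010051.15), encodes the lysosomal hyaluronidase. It was at 7.11, 4.83 and 6.34 CPM in the E13.5 libraries, 4.91, 4.96 and 5.21 at E14.5 and 5.32, 6.23 and 6.77 at E15.5. It was at 6.62, 6.78 and 11.8 CPM at E16.5 and 9.15, 7.47 and 7.83 at P0. The P0 libraries were above all E13.5 libraries, and E16.5 replicate 3 was the highest of the 15. The log2 fold change from E13.5 to P0 was 0.42 (SE 0.23) with an edgeR adjusted p of 0.141, and the test over the 5 stages gave an edgeR adjusted p of 0.0585, which passed the threshold under several alternatives, DESeq2 among them. Its exons overlap those of *Naa80* and *Hyal3* on the same strand, and fragments that overlap 2 genes were not counted, so its level is uncertain.

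*Cemip*, on chromosome 7 (83932857 to 84086502, minus strand, ENSMUSG00000052353.13), encodes a hyaluronan-binding protein that takes part in hyaluronan breakdown outside the hyaluronidase family. It was at 31.2, 23.0 and 23.6 CPM in the E13.5 libraries, 10.9, 30.2 and 27.4 at E14.5 and 37.2, 29.8 and 17.2 at E15.5. It was at 22.7, 30.2 and 20.8 CPM at E16.5 and 27.7, 12.2 and 12.4 at P0. Libraries of a stage spread up to several-fold, and every pair of neighbouring stages overlapped. The lowest, E14.5 replicate 1, is the library with the highest brain and choroid plexus sum. The P0 against E13.5 log2 fold change was -0.57 (SE 0.41, edgeR adjusted p 0.253), and the test over the 5 stages had an edgeR adjusted p of 0.594.

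*Cd44* encodes the main cell-surface receptor for hyaluronan and lies on chromosome 2 (102811141 to 102901665, minus strand, ENSMUSG00000005087.17). Its level was 18.3, 18.8 and 28.4 CPM in the E13.5 libraries and 16.8, 24.1 and 38.0 at E14.5. It was 85.2, 59.6 and 80.4 CPM at E15.5, 63.9, 119 and 131 at E16.5, and 117, 92.4 and 157 at P0. Every library from E15.5 on was above every E13.5 and E14.5 library, with overlap among the later stages. The step from E14.5 (26.3 ± 10.8 CPM, SD, n = 3) to E15.5 (75.1 ± 13.6) was a rise of 1.51 on the log2 scale (SE 0.34), 2.85-fold with an edgeR adjusted p of 0.00805. From E13.5 to P0 it rose by 2.48 (SE 0.35), 5.58-fold with an edgeR adjusted p of 9.78e-05. With E14.5 represented by replicate 2 alone, the step was 1.67. E14.5 then has no spread of its own, so whether the call held could not be judged.

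With *Cd44* and *Has1*, 2 of the 8 genes passed from E14.5 to E15.5, both upward, where 26.1% of all genes passed, 12.7% upward and 13.4% downward. Libraries did not overlap for these and for *Hyal1* and *Hyal2*, and 51.3% of all genes share that. Osteoblast markers (*Runx2*, *Sp7*, *Ibsp*, *Bglap*, *Col1a1* and *Alpl*) moved over the same step: their sum was 1016 to 2194 CPM at E14.5 and 13811 to 16181 at E15.5, and 5 of 6 rose in edgeR's test, with a median log2 fold change of 2.80. At E13.5 that sum was 1284 to 1961 CPM, at E16.5 14210 to 19710 and at P0 16156 to 31066. *Bglap* was at or under 3 counts in at least 1 E14.5 library. Macrophage markers (*Ptprc*, *Csf1r*, *Cx3cr1*, *Adgre1* and *Mrc1*), from cells known to carry CD44, summed to 51.2 to 77.5 CPM at E13.5, 72.3 to 96.3 at E14.5 and 136 to 150 at E15.5. They summed to 151 to 208 CPM at E16.5 and 169 to 229 at P0, and all 5 were above 3 counts in every library. *Cx3cr1* went the other way, from 12.04, 9.03 and 12.2 CPM at E13.5 to 7.01, 4.603 and 5.83 at P0. Skeletal muscle markers (*Myod1*, *Myog*, *Acta1*, *Ckm* and *Myh3*) also moved, with sums of 181 to 840 CPM at E14.5 and 1332 to 3615 at E15.5. Over that step 3 of 5 rose in edgeR's test (median log2 fold change 2.24). From E13.5 to P0 3 of 5 rose (median 3.99), beside 29.8% of all genes. The part of these cell types in the *Cd44* and *Has1* changes was not tested.

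*Vcan* encodes versican, the large chondroitin sulfate proteoglycan that binds hyaluronan through its head domain, and lies on chromosome 13 (89655312 to 89742509, minus strand, ENSMUSG00000021614.16). It was at 1021, 685 and 967 CPM in the E13.5 libraries, 503, 653 and 635 at E14.5 and 649, 549 and 517 at E15.5. It was at 226, 437 and 709 CPM at E16.5 and 220.5, 309 and 344 at P0. The P0 libraries were below all libraries of E13.5, E14.5 and E15.5, and the E16.5 libraries spanned most of the range. *Vcan* fell by 1.61 on the log2 scale (SE 0.33) from E13.5 (891 ± 180 CPM, SD, n = 3) to P0 (291 ± 63.5), 3.06-fold lower with an edgeR adjusted p of 0.00128. From E14.5 to E15.5 its value was -0.063 (SE 0.32, edgeR adjusted p 0.903), and upper-quartile scaling turned it to 0.062. The mesenchyme marker sum was also lower at P0 than at E13.5, and its part in the *Vcan* change was not tested.

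**Figure D4:**
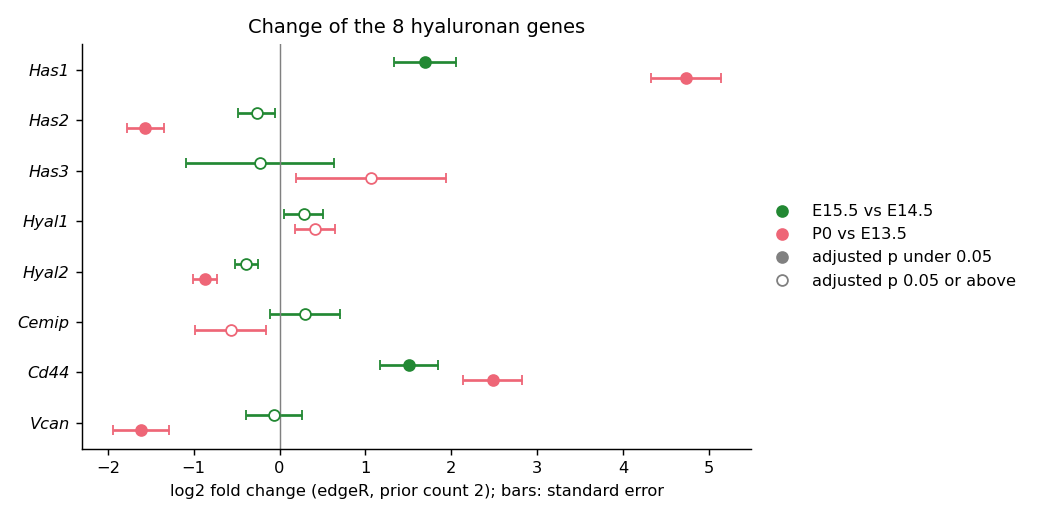
Fitted log2 fold change of the 8 genes from E14.5 to E15.5 and from E13.5 to P0, with standard error bars; filled points passed an adjusted p of 0.05. From E13.5 to P0, *Has1* (4.73) and *Cd44* (2.48) are filled to the right and *Vcan* (-1.61), *Has2* (-1.56) and *Hyal2* (-0.87) to the left.

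The other 3 neighbouring comparisons called none of the 8 genes in edgeR's quasi-likelihood test. From E13.5 to E14.5, 0.00903% of all genes passed. There *Has1* had the lowest p of the 8 (0.0186 unadjusted, adjusted p 0.236 in edgeR), the only one under 0.05 before adjustment. DESeq2 called 0 of the 8, beside 956 of 20963 genes. Libraries of these 2 stages did not overlap for *Has1* and *Vcan*, 2 of 8, as for 29.2% of all genes. From E15.5 to E16.5, 1.41% of all genes passed, 1.03% higher and 0.379% lower. *Has2* was the only one of the 8 under 0.05 before adjustment in edgeR. DESeq2 called 1 of the 8, *Has2*, beside 2047 of 20963 genes. From E16.5 to P0, 0.352% of all genes passed, 0.190% higher and 0.163% lower. *Has1* and *Hyal2* were under 0.05 before adjustment in edgeR (0.000402 and 0.0307). DESeq2 called 1 of the 8, *Has1*, beside 646 of 21695 genes. Libraries of E16.5 and E15.5 did not overlap for *Has2*, which 31.2% of all genes share, and those of P0 and E16.5 did not overlap for *Has1*, which 11.6% share.

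With E14.5 represented by replicate 2 alone, that stage has no spread of its own, so only log2 fold changes are compared here. The log2 fold changes from E13.5 to E14.5 were then 1.08 for *Has1* (0.91 with all libraries), -0.34 for *Has2* (-0.32), 1.123 for *Has3* (0.99), -0.31 for *Hyal1* (-0.28), -0.12 for *Hyal2* (-0.13), 0.20 for *Cemip* (-0.18), 0.13 for *Cd44* (0.27) and -0.47 for *Vcan* (-0.58). Those from E14.5 to E15.5, beside *Has1* and *Cd44* above, were -0.23 for *Has2* (-0.27), -0.34 for *Has3* (-0.23), 0.34 for *Hyal1* (0.28), -0.38 for *Hyal2* (-0.39), -0.067 for *Cemip* (0.30) and -0.15 for *Vcan* (-0.063). *Cemip* changed sign in both comparisons, and the other 7 genes kept theirs.

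Per kilobase, versican transcripts led at E13.5 with 61.6 CPM per kilobase, then *Hyal2* with 26.4, *Has2* with 8.74 and *Cd44* with 3.22, and the libraries of each did not overlap those of the next. *Cemip* (2.12), *Hyal1* (1.61) and *Has3* (1.32) overlapped their neighbours, and *Has1* was lowest with 0.00965. At E15.5 *Cd44* (11.1) stood above *Has2* (5.82) and below *Hyal2* (18.5) and *Vcan* (39.5). At P0 *Vcan* (20.1), *Cd44* (17.99) and *Hyal2* (14.5) overlapped in that order. *Has2* (2.95), *Has3* (2.77), *Hyal1* (2.16) and *Cemip* (1.43) followed, each overlapping its neighbour, and *Has1* (0.461) stayed lowest. The receptor gene thus went from below *Has2* at E13.5 to above it at E15.5 and P0, on levels per kilobase.

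The wider pathway was followed in 6 lists of 49 other genes, of which 42 were tested. The 7 that did not pass the filter were *Ambp*, *Itih1*, *Habp2*, *Hyal4*, *Hyal5*, *Hyal6* and *Spam1*, none with more than 7 counts in a library. From E13.5 to P0, 29 of the 42 passed in edgeR, 18 higher and 11 lower, beside 56.6% of all genes. Their median log2 fold change was 0.21, against 0.03 over all genes. From E14.5 to E15.5, 12 passed, 10 higher and 2 lower, beside 26.1% of all genes. Without E14.5 replicate 1, E14.5 replicate 2 or E15.5 replicate 2, 5, 7 and 6 passed. The share of all genes passing in those fits is not given here, so these counts have no background beside them.

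Among 7 genes that make the precursor sugars, 2 were higher and 2 lower at P0 than at E13.5, with a median log2 fold change of -0.32, beside 29.8% higher and 26.8% lower over all genes. *Ugp2*, which makes UDP-glucose, rose by 1.05 (SE 0.27, edgeR adjusted p 0.00590), from 68.0 ± 9.53 to 141 ± 60.9 CPM (SD, n = 3). *Gfpt1*, the first enzyme of the hexosamine pathway, fell by 0.66 (edgeR adjusted p 0.00944), and *Uap1*, which makes UDP-N-acetylglucosamine, rose by 0.39 (edgeR adjusted p 0.0334). *Ugdh*, which makes UDP-glucuronic acid, did not pass.

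Of the 5 other receptors, 3 were higher and 1 lower at P0 than at E13.5, with a median of 1.84, beside 29.8% higher and 26.8% lower over all genes. *Lyve1*, the receptor of lymphatic endothelium and some macrophages, went from 2.89 ± 1.49 CPM (SD, n = 3) at E13.5 to 26.5 ± 11.6 at P0, a rise of 3.18 (SE 0.48, edgeR adjusted p 0.000147). *Layn*, for the receptor layilin, rose by 1.89 and *Stab2*, a scavenger receptor of sinusoidal endothelium, by 1.84 (edgeR adjusted p 3.68e-05 and 0.000626). Endothelial markers (*Pecam1*, *Cdh5*, *Kdr* and *Tek*) summed to 237 to 314 CPM at E13.5 and 324 to 550 at P0, and macrophage markers are given above. Their part in these rises was not tested.

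Of 16 genes for matrix assembly, 13 were tested, and 5 were higher and 3 lower at P0 than at E13.5 (median 0.24), beside 29.8% and 26.8% of all genes. *Hapln4*, a link protein of the nervous system, rose by 2.83 from a low level, 0.281 ± 0.126 to 2.22 ± 1.55 CPM (SD, n = 3, edgeR adjusted p 0.000443). *Ncan* and *Bcan*, for the brain lecticans neurocan and brevican, fell by 3.29 and fell by 3.12, in that order, from E14.5 to E15.5 (edgeR adjusted p 0.00613 and 0.00314). Their E14.5 levels were 474, 291 and 170 CPM for *Ncan* and 49.1, 39.2 and 18.3 for *Bcan* in replicates 1 to 3. Replicate 1, with the highest brain and choroid plexus marker sum, was the highest for both. Replicate 3, with the next highest sum (779 CPM), was the lowest, below replicate 2 with a sum of 93.8 CPM. *Ttr* made up most of that sum in replicates 1 and 3, at 1224 and 673 CPM, against 8.64 CPM in replicate 2. *Neurod1* (41.9, 20.1 and 15.7 CPM in replicates 1 to 3) and *Sox2* ranked the libraries as *Ncan* and *Bcan* did. *Ttr*, *Kcne2* and *Otx2* ranked them as the sum did. The part of brain tissue was not tested. With E14.5 represented by replicate 2 alone, the *Bcan* log2 fold change was -3.22, a comparison with 1 library at E14.5 and no spread of its own.

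All 5 tested genes of 9 further breakdown enzymes passed from E13.5 to P0, 4 higher and 1 lower, with a median of 1.37, beside 56.6% of all genes. *Hexa*, for a subunit of a lysosomal glycosidase, rose by 1.89 (SE 0.22, edgeR adjusted p 2.67e-05), and *Gusb*, for beta-glucuronidase, rose by 1.37 (SE 0.19, edgeR adjusted p 7.57e-05). *Hexa* went from 60.2 ± 8.59 to 223 ± 79.4 CPM (SD, n = 3) and *Gusb* from 41.8 ± 8.02 to 108 ± 18.9. Both lysosomal genes thus moved opposite to *Hyal2*.

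Of 6 ADAMTS proteases that can cut versican, 1 was higher and 1 lower at P0 than at E13.5, with a median of 0.05, beside 29.8% and 26.8% of all genes. *Adamts5* rose by 0.98 (SE 0.30, edgeR adjusted p 0.0141) and *Adamts4* fell by 0.71 (SE 0.19, edgeR adjusted p 0.00748). All 6 genes for CD44 sheddases and cytoskeletal linkers passed, 3 higher and 3 lower, beside 56.6% of all genes. *Ezr*, for ezrin, rose by 1.79 (SE 0.37, edgeR adjusted p 0.00132), while *Rdx*, for radixin, and *Adam10*, a CD44 sheddase, fell by 0.92 and 0.89 (edgeR adjusted p 0.000193 and 2.00e-04). *Ezr* is also expressed in epithelia, whose markers rose in 4 of 6 cases over the same span (median 1.81), beside 29.8% of all genes. The part of epithelium was not tested.

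**Figure D5:**
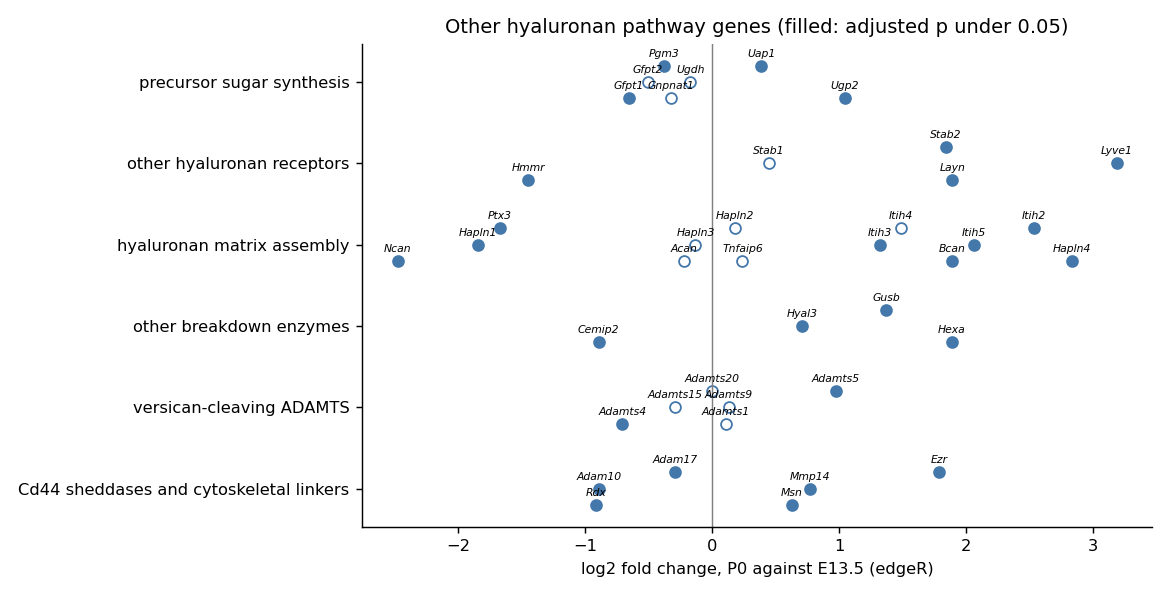
Log2 fold change from E13.5 to P0 of tested pathway genes, by list, each point a gene; filled points passed an adjusted p of 0.05 in edgeR. *Lyve1* (3.18) and *Hapln4* (2.83) lie farthest to the right, and *Ncan* (-2.47) lies farthest to the left.

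For each gene the 3 protein-coding genes of at least 5 CPM with the most similar log2 CPM over the 15 libraries were listed by Pearson r. The points share their stage, so r is a description. *Has1* was closest to *Arid5a* (0.985), *Plaur* (0.976) and *Lcn2* (0.975), and *Cd44* to *Mamdc2* (0.979), *Kcnn4* (0.978) and *Lmna* (0.977). *Has2* was closest to *Pabpc4l* (0.971), *Col25a1* (0.965) and *Pcdh18* (0.964), and *Vcan* to *Mcc* (0.960), *Gxylt1* (0.956) and *Smc2* (0.955). *Hyal2* was closest to *Tyw1* (0.978), *Noc2l* (0.966) and *Ppil1* (0.961). The 3 genes that passed no test over the stages had lower values. *Has3* was closest to *Dsc3* (0.879), *Shh* (0.878) and *Sp6* (0.829), *Hyal1* to *Syk* (0.912), *Frrs1* (0.868) and *Nfam1* (0.857), and *Cemip* to *Bmper* (0.839), *Nfkbie* (0.825) and *Lhfpl2* (0.801). Ranked by Spearman's rho in place of r, 2 of the 3 stayed for *Has2* and *Has3*, 1 for *Has1*, *Hyal1* and *Cemip*, and 0 for *Hyal2*, *Cd44* and *Vcan*.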

How the data were processed

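The data were RNA-seq counts per gene for 15 libraries of wild-type palate. Per the labels, palates of 3 embryos were pooled, their RNA was purified on NucleoSpin columns and libraries followed an Illumina preparation. The deposited table holds whole-number counts of read pairs for 54232 genes and exon lengths in bases. The authors ran featureCounts 2.0.1 on reverse-strand pairs with GENCODE M18, per the file headers. The submitters' processing notes name mm10, cutadapt 3.4, HISAT2 2.2.1, Bowtie2 and SAMtools 1.12. The recorded command had no option to count fragments overlapping 2 genes. Symbols came from GENCODE M21 for 54079 genes, and 99.8% of genes with the same identifier version had identical positions, so positions are given on GRCm38.

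Genes were filtered with filterByExpr (minimum count 10), leaving 22151. Scaling was by TMM, and a single edgeR 4.0.16 model (R 4.3.3) held all 15 libraries and a term for every stage. Each contrast was tested by quasi-likelihood F test with Benjamini-Hochberg adjustment over all tested genes and a threshold of 0.05. Fold changes used a prior count of 2, and the common biological coefficient of variation was 0.332. Scripts were tested on simulated data. Levels are CPM on TMM-adjusted totals, and genes are compared with each other only per kilobase of exon. Alternatives were DESeq2 1.42.0, other scalings and filters, a fit of the 6 libraries alone, thinning to the smallest library, a replicate block and leaving out each library. E14.5 represented by replicate 2 alone was added after seeing the data. All 8 genes are named; of each pathway list, at most the 3 largest changes past the threshold in E15.5 against E14.5 or P0 against E13.5. A few other genes were named after their values were seen: *Ugdh*, and those that did not pass the filter. 1 further gene of the lists is counted but not reported here by name, nor drawn in the plot of pathway genes. The members and lists were chosen with earlier results of these data known. Replicate numbers were checked for pairing by the correlation of same-numbered libraries' deviations from the stage means: 9 of 30 pairs exceeded 0.1, and values ranged from -0.30 to 0.55. The highest were 0.548 (replicate 3, E13.5 and E14.5) and 0.538 (replicate 1, E15.5 and P0), so some same-numbered libraries shared structure. The main fit did not pair libraries by number, and the replicate block is among the alternatives.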

Additional observations from a re-analysis of the deposited data

How the results depend on the processing

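From E13.5 to P0 the same 5 genes passed in all alternatives that tested them. With a mean of at least 1 CPM *Has1* was not tested and 4 passed, beside 10139 of 16520 genes. In the comparison over 5 stages, 5 or 6 passed. With a replicate block 5 passed over the stages, 5 from E13.5 to P0 and 3 from E14.5 to E15.5, where *Hyal2* joined (edgeR adjusted p 0.0365). For the pathway genes the block gave 30, 29 and 10. Of all 22151 genes, 13151, 12595 and 5860 passed with the block, in the same order. From E14.5 to E15.5 the main count of 2 became 1 with a mean of at least 1 CPM, where 4800 of 16520 genes passed. It became 1 after thinning, where 4116 of 19489 genes passed. With E14.5 represented by replicate 2 alone, calls could not be judged, as E14.5 then has no spread of its own. DESeq2 called 1 from E15.5 to E16.5 and 1 from E16.5 to P0, where edgeR called 0. Over all genes DESeq2 called 2047 of 20963 and 646 of 21695 at these steps, and edgeR 312 and 78 of 22151. Leaving out each library gave 0 to 1 from E16.5 to P0 and 5 to 15 pathway genes from E14.5 to E15.5 (12 with all libraries). Counts over all genes in those fits are not given here. Directions that turned all belonged to uncalled values. Leaving out each library, the log2 fold changes ranged as given here. *Has3* ranged -0.60 to 0.0012 from E14.5 to E15.5, -0.13 to 1.87 from E15.5 to E16.5, -2.33 to 0.43 from E16.5 to P0, -0.18 to 1.53 from E13.5 to P0. *Hyal1* ranged -0.20 to 0.28 from E16.5 to P0. *Hyal2* ranged -0.070 to 0.077 from E15.5 to E16.5. *Cemip* ranged -0.43 to 0.16 from E13.5 to E14.5, -0.047 to 0.55 from E14.5 to E15.5, -0.45 to 0.064 from E15.5 to E16.5. *Cd44* ranged -0.090 to 0.51 from E13.5 to E14.5, -0.042 to 0.41 from E16.5 to P0. With E14.5 replicate 2 alone, *Cemip* was at 0.20 from E13.5 to E14.5 and -0.067 from E14.5 to E15.5. *Vcan* from E14.5 to E15.5 was 0.062 under upper-quartile scaling, which moved the median of all genes from 0.03 to 0.16, 0.022 with a mean of at least 1 CPM and 0.056 after thinning. Not divided by length, the E15.5 synthase shares were 63.5% for *Has2* and 35.4% for *Has3*, and at E16.5 the order of the means turned (43.4% and 54.4%), with *Has3* the larger in 3 of 15 libraries in place of 2. Ranked by Spearman's rho, 1 similar gene of 3 stayed for *Has1*, 1 for *Hyal1*, 0 for *Hyal2*, 1 for *Cemip*, 0 for *Cd44* and 0 for *Vcan*. The causes were not tested. Depth limits *Has1*, with 1 to 4 counts in the E13.5 libraries.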
